A study of Mus musculus with 4 samples.

Results

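The keratin gene family was examined across arrays of 2 haploid and 2 diploid mouse embryonic stem cell (ESC) samples. Members were all genes whose probe accession matched a symbol made of Krt and digits only, which gave 47 genes with 56 probes among 19748 named genes and 39409 probes. They comprised 4 keratins of simple epithelia (Krt7, Krt8, Krt18 and Krt19), 11 keratins of the hair shaft, and 17 other type I and 15 other type II keratins. A further 4 keratin genes with a letter in the symbol and the keratin-associated proteins (Krtap) were outside this rule. The haploid samples came from parthenogenetic haploid ESCs and the diploid samples from parthenogenetic diploid ESCs, and both groups were female. Parthenogenetic lines start from an activated egg without sperm, so all of their chromosomes are maternal. Each group held a line 1 and a line 2, described as independent experiments. Strain, feeder cells, passage number and the share of cells still haploid at harvest are not stated in the labels. The title of the series names the G2/M transition as its subject.

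Keratins are the intermediate filament proteins of epithelia. A filament is built from pairs of 1 acidic type I and 1 basic type II chain, so the genes work in pairs, and the pair in use changes with the epithelium. Krt8 (type II) and Krt18 (type I) form the pair of single-layered epithelia and are the first keratins of the mouse embryo, made in the trophectoderm, the outer layer of the blastocyst. Krt7 and Krt19 join them in many simple epithelia. Krt5 and Krt14 are the pair of basal epidermal cells, Krt1 and Krt10 that of the layers above, and the hair keratins fill the shaft of the growing hair. In the mouse most type I genes form a cluster on chromosome 11 and the type II genes a cluster on chromosome 15, at whose end Krt18, a type I gene, lies beside Krt8. Of the 47 members, 24 lay on chromosome 11 and 23 on chromosome 15.

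The start regions of Krt18 and Krt8 are shown because these neighbours gave the largest differences among the simple keratins, and that of Krt7 for comparison. Sequences are from RefSeq (GRCm38.p6), 5′ to 3′ on the strand of the gene, from 250 bases before the annotated start to 20 bases after it. Krt18 is at chr15:102027966-102028235 on the plus strand, Krt8 at chr15:102004323-102004592 on the minus strand and Krt7 at chr15:101412153-101412422 on the plus strand. Capitals mark matches, on either strand, to motifs that were searched by their letters. The TATA box was searched as TATAAA. The GC box, bound by factors of the SP family, was searched as GGGCGG. The AP-1 motif was searched as TGANTCA, where N is any base. The AP-2 motif was searched as GCCNNNGGC and the CCAAT box by its name. Motif matches that overlap form 1 run of capitals.
Krt18: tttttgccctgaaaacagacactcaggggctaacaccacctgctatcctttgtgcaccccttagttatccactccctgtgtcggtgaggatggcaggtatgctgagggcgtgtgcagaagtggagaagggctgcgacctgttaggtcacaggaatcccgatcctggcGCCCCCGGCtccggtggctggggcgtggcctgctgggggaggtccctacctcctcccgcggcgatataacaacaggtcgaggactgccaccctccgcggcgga
Krt8: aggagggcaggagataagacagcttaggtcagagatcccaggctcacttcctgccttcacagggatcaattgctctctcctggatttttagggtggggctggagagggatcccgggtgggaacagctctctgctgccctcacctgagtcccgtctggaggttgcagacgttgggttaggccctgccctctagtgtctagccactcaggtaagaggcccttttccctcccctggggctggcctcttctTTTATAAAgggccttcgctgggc
Krt7: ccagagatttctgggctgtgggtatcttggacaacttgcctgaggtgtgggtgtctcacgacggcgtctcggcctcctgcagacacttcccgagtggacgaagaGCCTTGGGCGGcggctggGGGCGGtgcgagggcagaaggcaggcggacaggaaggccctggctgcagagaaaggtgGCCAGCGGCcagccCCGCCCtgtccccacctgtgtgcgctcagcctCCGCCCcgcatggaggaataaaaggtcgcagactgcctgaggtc
Krt18 held 1 AP-2 match, starting 83 bases before the start. Krt8 held the TATA box letters at the annotated start, once on each strand in overlapping positions. Krt7 held 4 GC box matches and 2 AP-2 matches, and an AP-2 match and a GC box match overlapped. Over all 32851 start regions of this length, 12.9% held a TATA box match, 34.1% a GC box, 7.23% an AP-1 match, 14.8% an AP-2 match and 35.4% CCAAT. Among the 34 keratin genes with a start region in the table, 17 held a TATA box match, 2 a GC box, 1 an AP-1 match, 6 an AP-2 match and 13 CCAAT. These are matches of letters in one window and do not show that a factor binds there.

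A smaller share of keratins than of all named genes was detected. A gene was counted as measured when a probe was well above background, by the scanner software's call, on both arrays of at least 1 group. By this measure 22 of 47 keratins (46.8%) were measured, against 66.0% of all 19748 named genes. All 4 simple keratins were measured, as were 9 of 17 keratins of stratified epithelia and 2 of 11 of the hair shaft. So were 2 of 8 classed with the inner root sheath (the layer that guides the growing hair) and 5 of the 7 others. Of the 22, 18 were measured in both groups. Krt5 and Krt7 were measured through the haploid arrays and Krt20 and Krt28 through the diploid arrays, so these 4 were kept by the group in which they were detected more often.

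**Figure D1:**
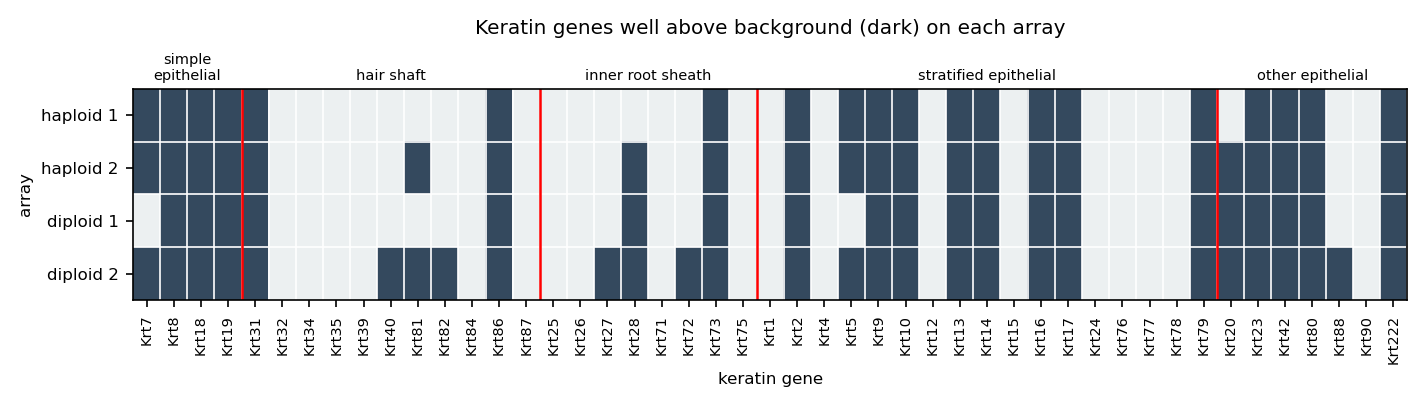
Each column is 1 of 47 keratin genes, ordered by class, and each row an array; a dark cell marks a gene with a probe well above background. The simple keratins form an almost filled block, with Krt7 missing on diploid replicate 1. Empty columns make up 6 of 11 of the hair shaft and 4 of 8 of those classed with the inner root sheath. Diploid replicate 2 has the most dark cells (28).

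The partners of a pair were not always detected together. Krt10 was detected on all 4 arrays at 1 of its 2 probes and on none at the other, and its partner Krt1 on none. Krt13, of the lining of mouth and oesophagus, was detected on all 4 arrays at 1 of its 2 probes and on 1 at the other. Its partner Krt4 was detected on none. Krt14 was detected on all 4 arrays and Krt5 on 3 (on 1 at its other probe), while Krt8 and Krt18 were both detected on all 4. In all, 19 keratins were detected on no array. They included Krt15, and Krt12, a keratin of the cornea. Among them were also the inner root sheath genes Krt25, Krt26 and Krt71, and Krt75, which was classed with these. The hair shaft genes Krt32, Krt34, Krt35, Krt39, Krt84 and Krt87 were likewise detected on no array. The remaining 6 genes (Krt27, Krt40, Krt72, Krt81, Krt82 and Krt88) were detected on diploid replicate 2, and Krt81 also on haploid replicate 2. Krt40 had a signal of 4.26 and 4.84 intensity units on the haploid arrays, against 5.11 and 106 on the diploid arrays, so its detection rested on 1 array. The number of keratins detected was 20 and 23 on the haploid arrays and 20 and 28 on the diploid arrays. Detection of all probes moved alike, with 53.6% and 59.7% of probes well above background on the haploid arrays and 55.1% and 65.0% on the diploid arrays. The part of array sensitivity in these counts was not tested.

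The arrays were 1-colour Agilent arrays on 1 slide with 1 scan, and 75% of probes read below 526 and 553 intensity units on the haploid arrays and below 617 and 907 on the diploid arrays. Levels below are log2 of the signal minus the log2 of that percentile, so 0 is the level of an array's 75th percentile, and levels of different genes are not compared because probes differ in brightness. All 12 listed ESC markers were measured, where 66.0% of all named genes were. The core factor Pou5f1 had levels of 3.38 and 3.33 on haploid arrays, against 3.26 and 3.51 on diploid arrays. Sox2 had 2.26 and 2.08, against 2.04 and 2.13, and Nanog -3.09 and -2.95, against -2.72 and -2.58. Markers of other cell types were measured too, among them 18 of 22 feeder fibroblast and 12 of 16 trophectoderm markers. Detection alone thus does not identify the cells. Differences were tested with limma across 17963 features, each named gene or unnamed accession with a measured probe, and 20 of them (0.111%) passed at an adjusted p of 0.05, 15 higher in haploid cells (0.0835%) and 5 lower (0.0278%). Values after ± are the fit's standard errors (SE), with n = 2 per group. The labels name separate lines and experiments and give no more on the cultures, so p-values cover the spread among these 4 samples, which may be technical. In such bulk RNA fewer cells of a type and less RNA per cell cannot be told apart.

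The 4 simple keratins were all higher on average in haploid cells, most clearly Krt18 and Krt8, but none passed the test over all features. Krt18 had log2 levels of 2.61 and 2.61 on the haploid arrays, against 1.43 and 1.33 on the diploid arrays. The replicates of each group nearly coincided and the groups did not overlap. The difference was 1.23 ± 0.17 SE, or 2.34-fold, with a limma adjusted p of 0.0781. It ranked 216th of 17963 features by signed difference and 57th by p. Krt8, the type II partner of Krt18, had levels of -0.60 and -1.11 on the haploid arrays, against -2.14 and -1.87 on the diploid arrays. Both haploid values lay above both diploid values, although the haploid replicates differed by 0.51. The difference of 1.15 ± 0.23 SE (2.22-fold) had a limma adjusted p of 0.170 and ranked 250th by signed difference. The pair thus differed by nearly the same amount. With 1 array left out the difference ran from 1.18 to 1.28 for Krt18 and from 0.90 to 1.40 for Krt8. Because the groups did not overlap for either gene, leaving out 1 array could not change the direction. Krt18 passed the test in 4 of 17 alternatives and Krt8 in 2, with limma adjusted p between 8.7e-05 and 0.873 for Krt18 and between 0.00475 and 0.873 for Krt8.

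The other simple keratins differed less. Krt19, a type I keratin without a tail domain that occurs in trophectoderm and many ducts, had levels of -1.69 and -1.03 on the haploid arrays, against -1.83 and -1.88 on the diploid arrays. The groups did not overlap, but haploid replicate 1 lay only 0.14 above diploid replicate 1, less than the 0.67 between the haploid replicates. Its difference was 0.50 ± 0.25 SE (adjusted p = 0.497), and 0.17 without haploid replicate 2. Krt7, a type II keratin of ducts and of trophoblast, was dim, at -4.01 and -3.87 on the haploid arrays, against -4.68 and -4.00 on the diploid arrays. Diploid replicate 1 alone was low and not well above background, and the groups overlapped. The difference of 0.40 ± 0.26 SE (adjusted p = 0.569) was 0.06 without diploid replicate 1. With normexp background correction on all spots, which subtracts a fitted background and failed on diploid replicate 2, Krt8 differed by 0.28, Krt19 by -0.04 and Krt7 by -0.79.

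**Figure D2:**
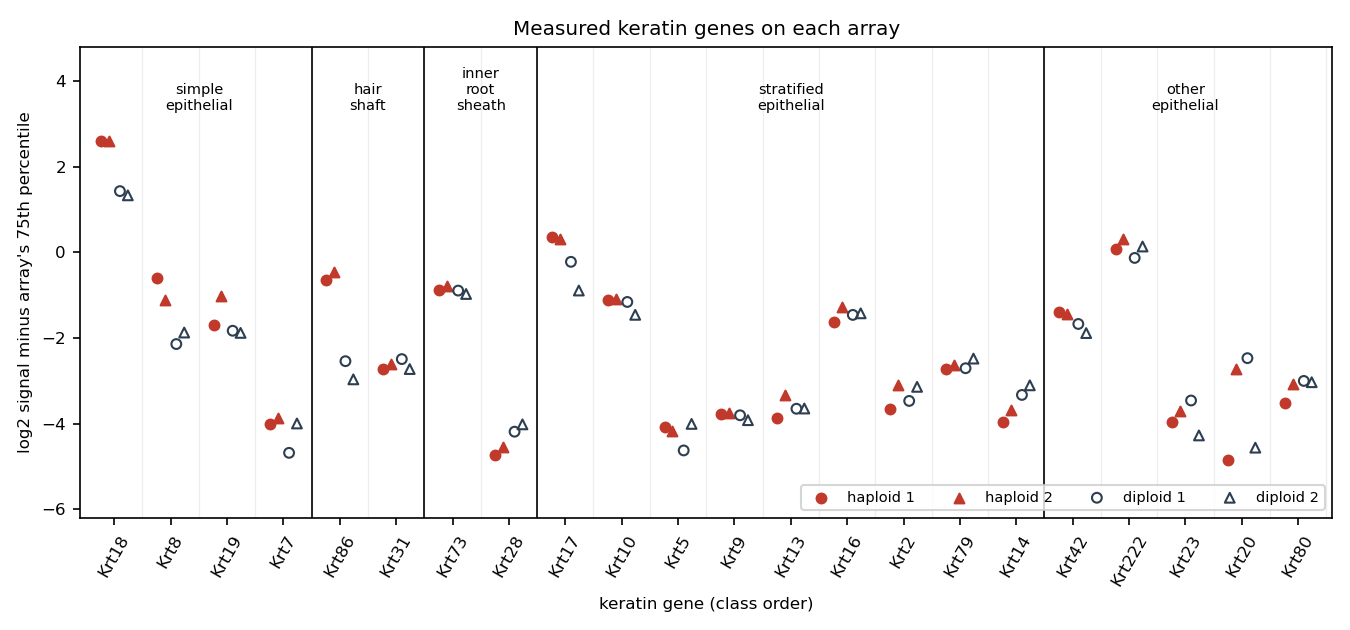
Log2 signal minus the array's 75th percentile is plotted for the 22 measured keratins, with filled symbols for haploid and open symbols for diploid arrays, and circles and triangles for replicates 1 and 2. Krt18, Krt8, Krt86 and Krt17 show both haploid symbols above both diploid symbols by a clear gap, Krt14 and Krt28 the opposite, and the replicates of Krt20 lie far apart in both groups.

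Krt86, a type II keratin of the hair shaft, was the only keratin that passed the test over all features, higher in haploid cells (1 of 22 measured keratins, where 0.0835% of all features did so). It had levels of -0.65 and -0.45 on the haploid arrays, against -2.54 and -2.97 on the diploid arrays. In intensity units its probe read 335 and 405 on the haploid arrays and 106 and 116 on the diploid arrays, well above background on all 4. The difference of 2.20 ± 0.21 SE (4.60-fold, limma adjusted p = 0.0427) ranked 54th of all features by signed difference and 10th by p. The gap of 1.89 between the lowest haploid and the highest diploid value exceeded the differences between replicates, 0.20 in haploid and 0.42 in diploid cells. The call rests on 1 probe and on both diploid arrays. It ended when diploid replicate 1 was left out (2.42, limma adjusted p = 0.247) and when diploid replicate 2 was (1.99, adjusted p = 0.0976). It also ended in 7 other alternatives of 17. In 6 of these the difference was 2.08 to 2.25, and with normexp on all spots it was 0.76. Adjusted p ran from 1.57e-05 to 0.873 over the alternatives.

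The genes around Krt86 gave no like signal. In the RefSeq gene order Krt86 lies between Krt81 and Krt83, followed by Krt84 and Krt82. Krt81 read 7.86 and 19.99 intensity units on the haploid arrays, against 12.3 and 27.3 on the diploid arrays, and was well above background on replicate 2 of each group alone. Krt82 read 4.77 and 8.31 on the haploid arrays, against 6.91 and 24.8 on the diploid arrays. Krt84 read 5.18 and 4.34, against 5.99 and 5.59. Krt83 had no probe matched here, and RefSeq lists a synonym (5430421N21Rik) for both Krt83 and Krt86. These hair keratins are close paralogs, so whether the Krt86 probe also reports Krt83 transcripts was not tested. Among type I partners of the hair shaft, only Krt31 was measured, with levels of -2.74 and -2.60 on the haploid arrays, against -2.49 and -2.73 on the diploid arrays. The groups overlapped and the difference was -0.06 ± 0.18 SE.

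Among the 9 measured keratins of stratified epithelia, Krt17 and Krt14 stood at opposite ends. Krt17, a type I keratin of embryonic epidermis, hair follicle and injured skin, had levels of 0.36 and 0.32 on the haploid arrays, against -0.22 and -0.89 on the diploid arrays. The groups did not overlap, the diploid replicates were 0.67 apart, and the difference was 0.89 ± 0.25 SE (1.86-fold, adjusted p = 0.261). With diploid replicate 2 left out it was 0.56. Krt14, the basal epidermal keratin, had levels of -3.96 and -3.67 on the haploid arrays, against -3.33 and -3.11 on the diploid arrays. Both haploid values lay below both diploid values, with a difference of -0.60 ± 0.19 SE (adjusted p = 0.320). The difference was -0.15 with normexp fitted after spots of high local background were removed. Its partner Krt5 was near the limit of detection, at -4.09 and -4.16 on the haploid arrays, against -4.63 and -4.01 on the diploid arrays, and the groups overlapped (0.19 ± 0.24 SE).

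The other stratified keratins lay within 0.3 of no difference. Krt10, of the layers above the basal one, had levels of -1.10 and -1.09 on the haploid arrays, against -1.16 and -1.46 on the diploid arrays (0.21 ± 0.18 SE). The haploid replicates agreed within 0.02 and diploid replicate 2 was the low one. Krt16, a keratin of injured epidermis and a frequent companion of Krt17, had levels of -1.63 and -1.28 on the haploid arrays, against -1.46 and -1.42 on the diploid arrays (-0.01 ± 0.19 SE). The diploid values lay between the haploid ones. Krt9, of the thick skin of palms and soles, differed by 0.10 ± 0.17 SE and Krt13 by 0.06 ± 0.22 SE. Krt2, of the upper epidermis, differed by -0.08 ± 0.25 SE, and Krt79, of the upper hair follicle, by -0.08 ± 0.18 SE. Adjusted p ran from 0.657 to 0.987 over these 6 genes.

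In the inner root sheath, Krt28 (type I) was lower on both haploid arrays and Krt73 (type II) barely differed. Krt28 had levels of -4.73 and -4.55 on the haploid arrays, against -4.19 and -4.02 on the diploid arrays. It was well above background on haploid replicate 2 and both diploid arrays, and the difference was -0.54 ± 0.18 SE (adjusted p = 0.332). It shrank to -0.04 with normexp fitted after spots of high local background were removed. Krt73 had levels of -0.88 and -0.79 on the haploid arrays, against -0.89 and -0.97 on the diploid arrays. The values did not overlap, by a margin of under 0.01, and differed by 0.09 ± 0.17 SE.

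The other keratins were mostly near 0. Krt42, a relative of Krt17 that RefSeq also lists as ecat6, had levels of -1.38 and -1.45 on the haploid arrays, against -1.67 and -1.89 on the diploid arrays. The replicates lay close together and the groups did not overlap, with a difference of 0.36 ± 0.18 SE (adjusted p = 0.480). Krt80 had levels of -3.52 and -3.08 on the haploid arrays, against -3.00 and -3.03 on the diploid arrays (-0.28 ± 0.21 SE). Krt222 differed by 0.20 ± 0.19 SE, and Krt23 by 0.04 ± 0.29 SE. Krt20, a keratin of gut and urothelium, had levels of -4.86 and -2.72 on the haploid arrays, against -2.47 and -4.56 on the diploid arrays. Replicate 1 was low and replicate 2 high in haploid cells and the reverse in diploid cells, so the replicates differed by over 2 log2 units in both groups and the mean difference (-0.27 ± 0.86 SE) carries little information.

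**Figure D3:**
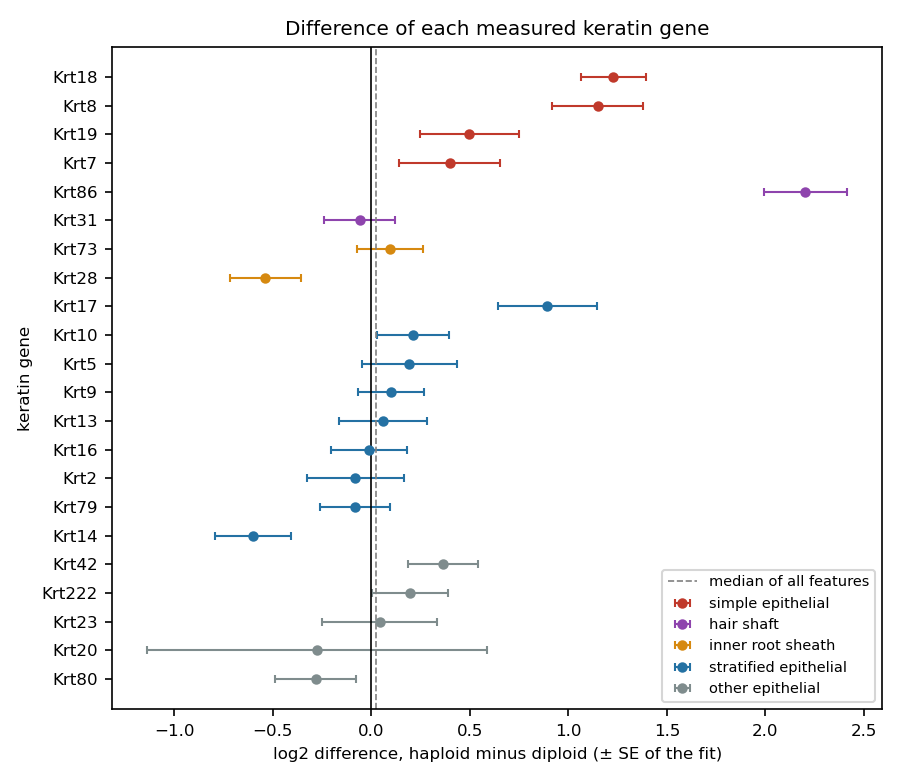
The log2 difference, haploid minus diploid, of each of the 22 measured keratins is shown with the SE of the fit, coloured by class. The 4 simple keratins lie right of the dashed median of all features (0.02), Krt86 lies farthest right at 2.20, and most other keratins have an SE bar that crosses or nears 0.

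Set side by side, the simple keratins had a median difference of 0.82 (4 of 4 above 0) and the 18 other measured keratins one of 0.05 (10 of 18 above 0), against 0.02 over all 17963 features (53.2% above 0). The other type I keratins had a median of 0.06 (7 of 11 above 0) and the other type II keratins one of -0.08 (2 of 5 above 0). The 2 measured hair keratins, Krt86 at 2.20 and Krt31 at -0.06, had a median of 1.07 that lies between unlike values. With normexp on all spots, the fit that failed on diploid replicate 2, the median was 0.12 for the simple keratins (2 of 4 above 0) and -0.74 for the others (3 of 18 above 0). With 1 array left out the median of the simple keratins ran from 0.77 to 0.96, and that of the others was -0.10 without haploid replicate 2, -0.07 without diploid replicate 1 and 0.17 without haploid replicate 1. Krt7 and Krt5 were kept through the haploid arrays and Krt20 and Krt28 through the diploid arrays. The signs of these 4 are therefore not independent of the filter. Among keratins detected on all 4 arrays, the median was 1.15 for the 3 simple ones and 0.06 for the 15 others. These medians are descriptions of chosen genes and were not tested. Of the 4 simple keratins, limma called 0, and 2 had an unadjusted p under 0.05, which 11.7% of all features had. Both haploid values lay above both diploid values for 9 of 22 keratins, including 3 of the 4 simple ones, where 26% of all features did so. Both lay below for 3 of 22 keratins (Krt14, Krt28 and Krt80), where 20.9% of all features did so. Neither count was tested against these shares.

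The difference moved with brightness over all features, which were split into 10 equal classes by mean level. The median difference was -0.17 in class 1, the dimmest, which holds Krt7, Krt5 and Krt28, and -0.08 in class 2, which holds Krt14, Krt20 and 5 other keratins. It was -0.03 in class 4, which holds Krt8, Krt19 and Krt86, and 0.04 in class 8, which holds Krt18. In classes 9 and 10, which hold no measured keratin, it was 0.09 and 0.22. The part of this trend in the keratin differences was not tested.

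**Figure D4:**
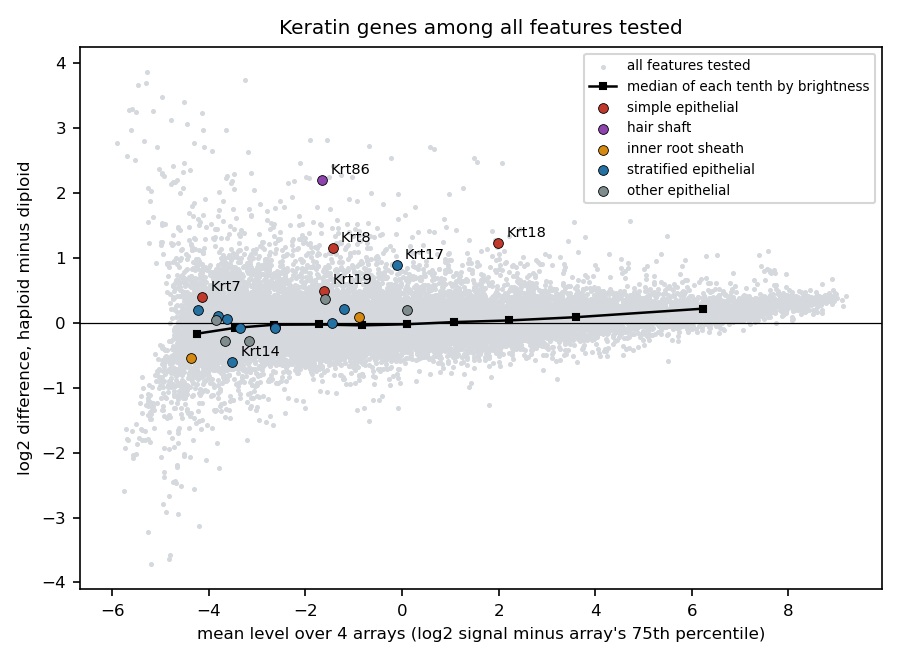
Each grey point is 1 of 17963 features, by mean log2 level over the 4 arrays and log2 difference (haploid minus diploid), with the median of each of 10 brightness classes as a black line and keratins as coloured points. Krt86, Krt18, Krt8 and Krt17 lie in the upper part of the cloud at their brightness, while most other keratins lie within it.

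Other intermediate filament genes were mostly higher in haploid cells, with 12 of 14 measured genes above 0 and a median of 0.31, although limma called 0 of them (3 at an unadjusted p under 0.05). Nefm, a neurofilament chain, had levels of -2.62 and -2.90 on the haploid arrays, against -4.13 and -3.83 on the diploid arrays (1.22 ± 0.20 SE, adjusted p = 0.116). Nefl, its light-chain partner, differed by 0.67 ± 0.22 SE. Vim, the vimentin gene of mesenchymal and many cultured cells, had levels of 3.90 and 3.74, against 3.43 and 3.32 (0.45 ± 0.17 SE), and Nes, the nestin gene of neural progenitors, differed by 0.45 ± 0.19 SE. These 4 genes were named for their small p. Both haploid arrays lay above both diploid arrays for 6 of the 14 genes, where 26% of all features did so. An unadjusted p under 0.05 was found for 11.7% of all features.

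Desmosome and plakin genes, of the junctions to which keratin filaments attach, and a separate list of epithelial junction genes had medians below 0. Of 12 measured desmosome and plakin genes 4 lay above 0 (median -0.17), and of 19 measured epithelial junction genes 4 did (median -0.24). Limma called 0 in either list, and 2 and 5 had an unadjusted p under 0.05, which 11.7% of all features had. The desmosome median was -0.03 without haploid replicate 2 and -0.05 with normexp after removal of high-background spots, and the junction median was -0.02 with normexp on all spots. The plakin gene Ppl had levels of -4.51 and -3.73 on the haploid arrays, against -3.40 and -3.12 on the diploid arrays (-0.86 ± 0.28 SE), while the plakophilin gene Pkp3 differed by 0.49 ± 0.20 SE, Pkp4 by -0.49 ± 0.23 SE and Pkp2 by -0.35 ± 0.19 SE. Among junction genes, Cldn4 (0.89 ± 0.26 SE, other probe 0.41) and Cldn3 (0.52 ± 0.21 SE), both claudins of epithelial tight junctions, lay above 0. Marveld2, tricellulin, was well above background on the diploid arrays alone (-1.08 ± 0.27 SE), and the splicing regulator Esrp1 differed by -0.43 ± 0.17 SE.

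Of 15 measured epithelial and hair transcription factors 12 lay above 0 (median 0.21), where 53.2% of all features did. The median was 0.09 with plain background subtraction and 0.10 with the mean of a gene's probes. It was 0.12 without diploid replicate 2 and 0.27 without haploid replicate 1. Limma called 0, and 4 had an unadjusted p under 0.05, which 11.7% of all features had. Gata3, a trophectoderm and hair follicle factor, had levels of -3.15 and -3.04 on the haploid arrays, against -3.96 and -4.27 on the diploid arrays (1.02 ± 0.19 SE, adjusted p = 0.139). Grhl2, a factor of epithelial identity, differed by 0.65 ± 0.17 SE, but by -0.46 at its other measured probe, and Grhl1 differed by -0.55 ± 0.20 SE. Lef1, a WNT effector that acts in hair formation, had levels of -3.80 and -3.57, against -2.10 and -2.58 (-1.35 ± 0.22 SE, adjusted p = 0.117). Cdx2, Elf5 and Tfap2a, trophectoderm factors, and Foxn1, a hair factor, were not measured. AP-1 and ETS genes had a median of 0.09 (5 of 8 above 0, 0 called by limma and 0 at an unadjusted p under 0.05). That median was -0.09 without haploid replicate 1 and -0.37 with normexp on all spots. In that list Ets2 differed by -0.41 ± 0.17 SE, Fos by -0.68 ± 0.35 SE, Fosb by -0.50 ± 0.33 SE and Jun by 0.31 ± 0.23 SE.

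Few products of differentiated skin and hair were measured. Of 16 cornified envelope genes 14 had a probe and 6 were measured (median -0.05), and Ivl, the involucrin gene, was not. Limma called 0, and 2 had an unadjusted p under 0.05, which 11.7% of all features had. With cyclic loess normalization that median was 0.05, and without diploid replicate 1 it was 0.22. Tgm1, a transglutaminase, differed by 0.95 ± 0.27 SE and Krtdap by 0.78 ± 0.20 SE, while Lor, the loricrin gene, differed by -0.34 ± 0.21 SE and Tgm3 by -0.15 ± 0.21 SE. Of 49 keratin-associated protein genes, whose products bind hair keratins, 17 were measured, 8 of them above 0 (median -0.07, with 0.03 under cyclic loess and 0.06 without diploid replicate 1), with 0 called by limma and 2 at an unadjusted p under 0.05. Krtap19-4 differed by 0.65 ± 0.20 SE, Krtap19-5 by 0.56 ± 0.17 SE and Krtap4-8 by 0.38 ± 0.17 SE. Krtap8-1 differed by 1.52 ± 0.63 SE, with levels of -4.24 and -2.13 on the haploid arrays, against -4.96 and -4.46 on the diploid arrays. It was well above background on 3 arrays, not on diploid replicate 1, and was kept through the haploid arrays. The sign of its difference is therefore not independent of the filter.

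Markers of other cell types were read beside the simple keratins. Trophectoderm markers other than keratins were above 0 for 10 of 12 measured genes of 16 listed (median 0.45), and their summed linear level was 28.6 and 29.5 on the haploid arrays, against 22.9 and 23.5 on the diploid arrays. The median was 0.75 without haploid replicate 1, 0.27 without haploid replicate 2 and 0.21 with normexp on all spots. Id2 differed by 1.09 ± 0.18 SE, Rhox6 by 0.86 ± 0.19 SE and Ascl2 by 0.82 ± 0.20 SE. The 2 genes below 0 were Eomes (-0.43 ± 0.17 SE, other probe -0.68) and Tfap2c (-0.14 ± 0.22 SE). Cdx2, Elf5, Tfap2a and Hand1 were not measured. Feeder fibroblast markers were above 0 for 13 of 18 measured genes of 22 listed (median 0.60), with a summed level of 17.98 and 14.5, against 10.9 and 8.02. With normexp on all spots that median was -0.23. Ccl2 differed by 1.59 ± 0.18 SE (adjusted p = 0.0528), Thbs1 by 1.39 ± 0.26 SE, Fbln5 by 1.03 ± 0.22 SE and S100a4 by 2.27 ± 0.51 SE, while Dcn, a fibroblast proteoglycan, differed by -0.38 ± 0.19 SE.

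Primitive endoderm markers, of a lineage that also makes simple keratins, were above 0 for 7 of 9 measured genes of 16 listed (median 0.06), with a summed level of 125 and 127, against 98.0 and 82.8. The gene Sparc made up 95.1% of the sum on each haploid array, against 94.6% and 93.8% on the diploid arrays, and the sum of the other 8 genes was 6.12 and 6.15, against 5.26 and 5.11. The median was -0.58 with normexp on all spots. Amn differed by 0.78 ± 0.25 SE and Sparc by 0.49 ± 0.18 SE. Cubn differed by 1.23 ± 0.43 SE and was well above background on the haploid arrays alone. Gata4 differed by -0.77 ± 0.28 SE, was well above background on 3 arrays and was kept through the diploid arrays. Sox17, Sox7 and Pdgfra were not measured. For the 6 genes well above background on all arrays the median was 0.18. Keratinocyte markers were above 0 for 6 of 9 measured genes of 13 listed (median 0.11), with a summed level of 25.1 and 20.4, against 23.6 and 21.9. The median was -0.09 without haploid replicate 1 and -0.06 with normexp on all spots. Sbsn differed by 0.44 ± 0.19 SE, Trp63, the master factor of stratified epithelia, by 0.23 ± 0.18 SE, Itgb4 by 0.23 ± 0.19 SE and Perp by 0.23 ± 0.26 SE, while Dsg3, Dsc3 and Col17a1 were not measured. ESC markers had a median of 0.09 (8 of 12 above 0), which was -0.02 with quantile normalization and 0.22 without haploid replicate 2, and a summed level of 301 and 287, against 280 and 246. Without Dppa5a, the brightest gene, the sum was 215 and 194, against 199 and 186, and the groups overlapped. Tdgf1 differed by -0.51 ± 0.19 SE, Nanog by -0.37 ± 0.17 SE, Zfp42 by 0.33 ± 0.16 SE and Dppa5a by 0.35 ± 0.21 SE. Limma called 0 genes in these 5 lists. An unadjusted p under 0.05 was found for 5 of 12 trophectoderm, 8 of 18 fibroblast and 4 of 9 primitive endoderm genes. It was found for 0 of 9 keratinocyte and 1 of 12 ESC genes, and for 11.7% of all features. Among the 4 primitive endoderm genes, Cubn and Gata4 were kept by the group in which they were higher. Their part in that count is therefore not independent of the filter. The part of other cells in the keratin differences was not tested.

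**Figure D5:**
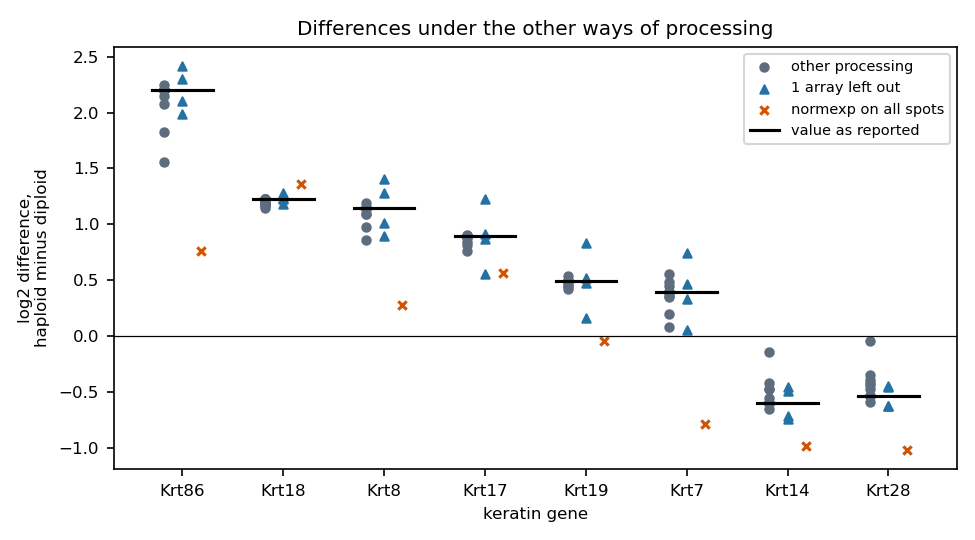
The log2 difference, haploid minus diploid, of 8 keratins is shown as reported (black line), with 1 array left out (triangles), under the other ways of processing (circles) and with normexp on all spots (crosses). Krt18 stays between 1.15 and 1.36 and Krt86 between 0.76 and 2.42, Krt14 and Krt28 stay below 0, and Krt19 and Krt7 fall below 0 with normexp on all spots alone.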

How the data were processed

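Per the labels' protocols, total RNA was amplified from 0.2 ug and labelled with Cy3. Per the file headers, Agilent Feature Extraction 11.0.1.1 wrote the deposited scanner files, the array design names build mm9, and the processed signal is an intensity on a linear scale. Their value table also holds intensity values, with column medians of 28.4, 28.3, 28.4 and 28.3 (haploid replicates 1 and 2, diploid replicates 1 and 2). Its ranks follow the scanner values (Spearman correlation across probes 0.999867 to 0.999944), and the step that gave its columns near-equal medians is not stated in the labels. Arrays have no counting error, and their number limits the precision.

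Control spots and spots marked as outliers (121, 142, 126 and 168 of 43020) were left out, and no spot was saturated. Log2 processed signal minus the array's 75th percentile was averaged over spots of a probe. Accessions named 26043 of 39409 probes (66.1%) through RefSeq (GRCm38.p6). The probe with the highest mean stood for its gene, and 6 measured keratins had 2 probes, of which 1 each was measured. The difference, haploid minus diploid, was tested two-sided in R 4.3.3 with limma 3.58.1, using lmFit and eBayes with Benjamini-Hochberg adjustment, and the script was tested on simulated data. Files were read with pandas 2.3.3.

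Every measured keratin is named, and from each list the 4 genes with the smallest p, beside genes named as undetected or as defining markers. The markers Pou5f1, Sox2, Dcn, Eomes and Tfap2c were named after their values were seen. The members and lists were chosen with earlier results of these data known. Keratin classes were assigned from general knowledge. The scanner files hold no mean signal, so normexp used the median spot signal. Alternatives covered scaling, background, filter, probe choice, floor, prior, block and left-out arrays. The plain subtraction and the normexp fit after removal of spots with high local background were added after seeing the data.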

Additional observations from a re-analysis of the deposited data

How the results depend on the processing

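Of 22 measured keratins, 8 kept their sign in all 17 alternatives (Krt86, Krt18, Krt8, Krt17, Krt222, Krt14, Krt28 and Krt80, with no value for Krt28 where detection on all arrays was required). Not every alternative could change a sign. Those of filter, probe choice, prior and block returned the same differences for the measured keratins. Leaving out 1 array could not change the sign of these genes other than Krt222, as their groups did not overlap. The count of features called by limma was 20 and ran from 0 to 439 with 1 array left out. It was 0 with cyclic loess, with normexp on all spots, without a filter and with a common floor, 5 with quantile normalization, 4 with the value table, 68 with normexp after removal of high-background spots, 112 with plain subtraction, 82 for features well above background on all arrays, 425 with a trend and robust prior, and 2 with the replicate number as a block. The labels give both groups numbers 1 and 2 but no shared origin, deviations of same-numbered arrays correlated at 0.0478, and Krt86 had a limma adjusted p of 0.0629 with the replicate block. The count of keratins called was 1 and ran from 0 to 2 with 1 array left out. It was 0 with quantile normalization, cyclic loess, normexp on all spots, the value table, no filter, the common floor or the replicate block. It was 2 (Krt86 and Krt18) with either added background correction or with detection on all arrays, and 4 (with Krt8 and Krt17) with the trend and robust prior. The median of the simple keratins ran from 0.77 to 0.96 with 1 array left out, and was 0.12 with normexp on all spots, 0.64 with normexp after removal of high-background spots, 0.71 with plain subtraction and 1.15 for the 3 detected on all arrays. The median of the other keratins was -0.74 with normexp on all spots. In that setting the median of all features was -0.10. That fit failed on diploid replicate 2 (a fitted background of -1073 intensity units, from 7 spots of high local background).

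The other 14 keratins changed sign in at least 1 alternative. With normexp on all spots Krt5 was -0.91, Krt7 -0.79, Krt9 -0.89, Krt10 -0.15, Krt13 -0.77, Krt19 -0.0396, Krt23 -0.88, Krt42 -0.34 and Krt73 -0.0926. With normexp after removal of high-background spots Krt2 was 0.0525, Krt20 0.0316, Krt31 0.0315 and Krt79 0.0342. With cyclic loess Krt2 was 0.0321, Krt16 0.0304 and Krt31 0.0192, with plain subtraction Krt5 was -0.0488 and Krt9 -0.0764, and with the percentile over probes detected on all arrays Krt23 was -0.0082. With 1 array left out Krt2 ran from -0.36 to 0.20, Krt16 from -0.19 to 0.17, Krt20 from -1.34 to 0.80, Krt31 from -0.17 to 0.0577, Krt13 from -0.21 to 0.33, Krt23 from -0.36 to 0.45, Krt5 from -0.12 to 0.50 and Krt79 from -0.20 to 0.0296. Without a filter 47 keratins entered, and with 1 array left out 22 to 28 did. The cause of these changes was not tested. Krt5, Krt7 and Krt20, and Krt28, which kept its sign, were each well above background on 3 arrays, and the other measured keratins on all arrays.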
